A study of Mus musculus with 10 samples.

Results

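The 10 genes described here are Jak1, Jak2 and Jak3, which encode Janus kinases, Stat3, Stat5a, Stat5b and Stat6, which encode signal transducers and activators of transcription, and Socs1, Socs3 and Cish, which encode inhibitors of the SOCS family. They were taken by name, with no threshold on their values, from 18194 genes that have a probe set of their own on the array, and all 10 were among the 17204 genes tested. Expression was measured on 10 Affymetrix mouse genome arrays, each with labelled cRNA from 1 sample of FACS-sorted splenic B cells. Naive B cells came from unimmunized Balb/c mice (n = 4). Germinal centre (GC) B cells, which divide and mutate their antigen receptors in the follicle, came from 2 lines on a Balb/c background (n = 3 each). The line B1-8 carries the heavy chain transgene VH186.2-Tg and the line V23 carries V23-Tg. Both lines also have a targeted deletion of the endogenous JH locus (JH KO), so that the transgene supplies the heavy chain. GC cells were λ+ PNA+ B220+ cells taken from the spleen 14 days after intraperitoneal immunization with 50 µg of the hapten conjugate NP-CGG in alum. The naive mice were given neither transgene nor immunization in the labels, and the stain that defined naive cells is not given in the sources used here. Immunization, genotype and sort therefore cannot be told apart in any comparison with naive cells. The labels do not say whether the arrays of a group come from separate animals, so a p-value here speaks only of the spread among the arrays, which may be technical.

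Cytokine receptors of lymphocytes have no kinase of their own and depend on JAK proteins bound to their tails. When a cytokine joins the receptor chains, the JAKs phosphorylate the receptor and then a STAT protein, which dimerizes, enters the nucleus and activates genes. Among those genes are SOCS family members and Cish, whose products bind the receptors or JAKs and shut the signal down, so their transcript levels are often read as a trace of recent cytokine signalling. In B cells, interleukin 4 acts mainly through STAT6, and interleukin 21 mainly through STAT3; both cytokines come from the T cells that help GC B cells.

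The sequence that STAT dimers recognize, TTCNNNGAA, which reads alike on both strands, was looked for in the RefSeq promoter windows (GRCm38.p6) of the 10 genes, from 250 bases before to 50 bases after each annotated start. It occurred in 2 of 12 windows, those of Socs3 and Cish, beside 8.30% of all 32851 windows. The variant with 4 central bases, TTCNNNNGAA, which STAT6 also binds, occurred in 0 of the 12 windows, beside 6.95% of all windows. The stretches of these 2 windows are shown because they were the only ones of the 12 with a match to TTCNNNGAA, 5′ to 3′ with the matched letters in capitals. The Socs3 stretch lies at chr11:117969502-117969531 on the minus strand, and its match begins at position −154 relative to the annotated start. The Cish stretch lies at chr9:107296654-107296683 on the plus strand, and its matches begin at bases 1 and 12 of the annotated transcript. A match describes letters only, and the reference strain is C57BL/6J, not Balb/c.
Socs3: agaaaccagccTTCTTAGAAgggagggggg
Cish: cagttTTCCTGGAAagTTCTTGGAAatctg

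GC B cells had less Socs3 and Stat6 RNA and more Socs1 RNA than naive B cells in both lines, and these calls held in each alternative analysis. Relative to naive cells, the mean of both GC groups fell by 1.76 ± 0.16 (log2, ± SE) for Socs3 and by 0.76 ± 0.08 for Stat6, and rose by 1.36 ± 0.21 for Socs1. Jak3 also passed the test (−0.50 ± 0.14, limma adjusted p = 0.0206), but without naive replicates 2 and 4 it did not (−0.32, adjusted p = 0.193). Its call also ended without naive replicate 2 alone (adjusted p = 0.0609), without naive replicate 4 alone (0.0569) and with median centring (0.0512). Thus 1 of the 10 genes was called higher and 3 lower at an adjusted p under 0.05, and 1 and 2 without those 2 arrays. Of all tested genes 41.5% were called in this comparison (20.5% higher, 21% lower), so the share among the 10 genes was near the background. The median log2 fold change of the 10 genes was 0.10, and that of all genes 0.06. In 3 of the 10 genes the GC and naive arrays did not overlap, as in 35.5% of all genes. In sorted bulk samples, fewer cells of a type and less RNA per cell cannot be told apart.

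**Figure D1:**
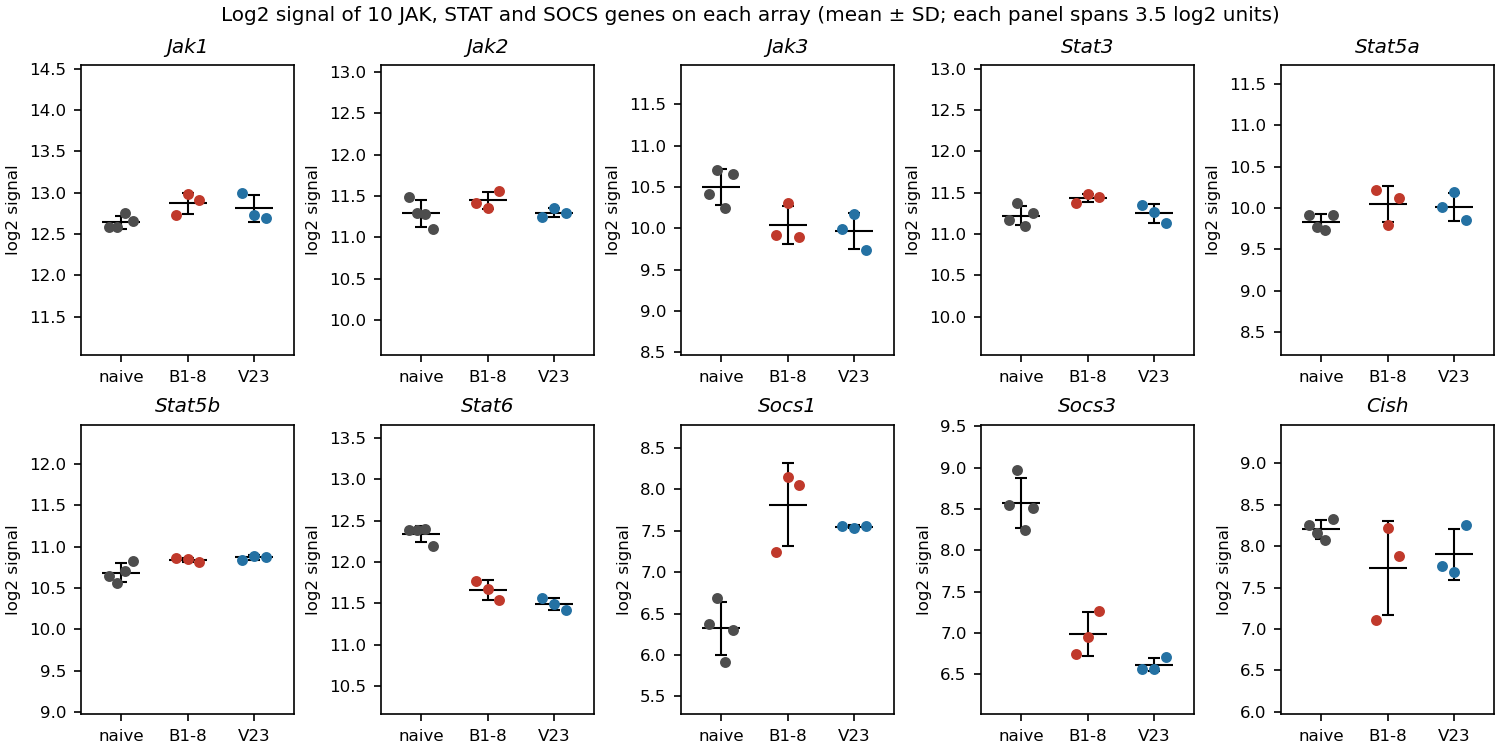
Log2 signal (y axis) of the 10 genes on each array, by group (x axis: naive, n = 4; GC B1-8 and GC V23, n = 3 each); points are arrays and bars the mean ± SD, and each panel has its own range of equal length. Socs3 and Stat6 are lower and Socs1 is higher on all 6 GC arrays than on every naive array, while the groups overlap or lie close in the other panels.

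Each gene is given by its brightest probe set, as a log2 signal used as deposited. The all-gene median differences were 0.05 for B1-8 and 0.06 for V23 against naive, or 0.12 and 0.19 with each array centred on its own median. The B cell markers Cd79a, Cd79b, Ms4a1 and Cd22 were high in all 3 groups, between 13.28 and 14.35 as group means, although 2 of 5 measured B cell markers fell in GC cells, Pax5 (−1.32 ± 0.21) and Cd79a (−0.40 ± 0.13). All 5 measured GC markers rose. All 7 measured neutrophil markers also rose, with log2 summed signals of 11.34 to 13.74 on naive, 15.86 to 15.91 on B1-8 and 15.19 to 15.77 on V23 arrays. RNA quality moved with the groups as well. The 3′ minus 5′ difference of the Actb control was 1.27 to 1.65 on naive, 0.81 to 1.19 on B1-8 and 0.71 to 0.87 on V23 arrays (two-sided exact permutation p = 0.00476, adjusted 0.00952 over 2 controls). Of markers of other cells, 1 of 6 for T cells, 2 of 5 for macrophages and 1 of 3 for NK cells fell, 2 of 4 for plasma cells rose, and of 3 for dendritic cells 1 rose and 1 fell. Between both GC groups and naive, 21% of all genes were called lower and 20.5% higher. The part of neutrophil RNA and of RNA quality in the results below was not tested. Naive replicate 2 had the highest germinal centre marker signal of the naive arrays (12.71) and naive replicate 4 the highest neutrophil signal (13.74). Counts and calls were also computed without this pair.

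The JAK genes come first. Jak1, the kinase shared by most cytokine receptors of lymphocytes, had log2 signals of 12.58, 12.59, 12.75 and 12.66 in naive samples, 12.73, 12.98 and 12.91 in B1-8 and 13.00, 12.73 and 12.70 in V23. The groups overlapped, and the difference of GC from naive was 0.20 ± 0.09 (95% interval −0.01 to 0.41, adjusted p = 0.124). Jak1 passed with each array centred on its median (0.30, adjusted p = 0.0376) and with intensity-trended, robust moderation (0.0395). The order of the group means was B1-8, V23, naive, with no neighbours apart beyond their spread. Of its 2 other probe sets, 1433803_at was at 12.37 ± 0.03 (SD) in B1-8, 12.05 ± 0.05 in naive and 11.97 ± 0.23 in V23, and 1433804_at at 8.54 ± 0.35, 7.97 ± 0.31 and 8.42 ± 0.31; neither passed in a fit over all 41235 probe sets tested.

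Jak2, which serves receptors of the interleukin 3 and interferon gamma type, had 11.10 to 11.49 (median 11.28) in naive samples, 11.42, 11.36 and 11.56 in B1-8 and 11.25, 11.36 and 11.29 in V23. The GC minus naive difference was 0.08 ± 0.09 (−0.12 to 0.29, adjusted p = 0.505), and the arrays of the 3 groups overlapped. Its other probe set, 1421065_at, gave a different call: it rose by 0.48 ± 0.12 (adjusted p = 0.0137), from 9.80 ± 0.16 in naive to 10.28 ± 0.13 in B1-8 and 10.27 ± 0.20 in V23. The probe sets thus agreed in direction but not in size.

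Jak3 pairs with the common gamma chain used by the receptors for interleukins 2, 4, 7 and 21. Its log2 signal was 10.41, 10.70, 10.24 and 10.65 in naive samples, 9.92, 10.30 and 9.90 in B1-8 and 9.99, 10.17 and 9.74 in V23. Naive replicate 3 lay below B1-8 replicate 2, and all 3 V23 arrays lay below all naive arrays. Jak3 changed by −0.53 ± 0.17 in V23 (adjusted p = 0.0340) and was at −0.46 ± 0.17 in B1-8 (adjusted p = 0.0651). The call in V23 ended without naive replicate 1 (adjusted p = 0.0539), naive replicate 2 (0.0794), naive replicate 4 (0.0745), V23 replicate 1 (0.0727) or V23 replicate 3 (0.119), and with median centring (0.0914), quantile normalization (0.0534) or array weights (0.0569). Without naive replicates 2 and 4 it was 0.199. In B1-8 Jak3 passed without naive replicate 3 (0.0445) or B1-8 replicate 2 (0.0399), with a filter at log2 6 (0.0485), and with trended robust moderation (0.0183). Jak3 has 1 probe set, 1425750_a_at, so no second reading was available.

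Among the STAT genes only Stat6 was called by its chosen probe set. Stat6 is the transcription factor through which interleukin 4 acts on B cells. It had 12.38, 12.38, 12.40 and 12.19 in naive samples, 11.77, 11.67 and 11.54 in B1-8 and 11.56, 11.49 and 11.42 in V23. Every GC array lay below every naive array. The changes were −0.68 ± 0.09 in B1-8 (adjusted p = 0.000711) and −0.85 ± 0.09 in V23 (adjusted p = 0.000172), which are levels 1.60-fold and 1.80-fold lower. Its second probe set, 1421708_a_at, gave −0.88 ± 0.10 for both GC groups (adjusted p = 0.000241), from 10.68 ± 0.09 in naive to 9.85 ± 0.12 in B1-8 and 9.73 ± 0.17 in V23. Both probe sets therefore read the same direction with close sizes.

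Stat3, the mediator of interleukin 6, 10 and 21 signals, gave readings that depended on the probe set. With 1460700_at it had 11.17, 11.37, 11.10 and 11.25 in naive samples, 11.38, 11.48 and 11.45 in B1-8 and 11.35, 11.27 and 11.13 in V23. The B1-8 arrays were just above the naive and V23 arrays, but the differences from naive were not called (0.21 ± 0.10 in B1-8, adjusted p = 0.129; 0.03 ± 0.10 in V23, adjusted p = 0.856). Probe set 1426587_a_at rose by 0.42 ± 0.11 in both GC groups (adjusted p = 0.0180), and 1424272_at was at 0.29 ± 0.15 (0.159). Probe set 1459961_a_at went the other way. It fell by 1.91 ± 0.25 (adjusted p = 0.000420), with 9.35, 9.23, 9.47 and 9.08 in naive samples, 8.28, 7.34 and 7.69 in B1-8 and 7.61, 6.69 and 6.61 in V23, so that all GC arrays lay below all naive arrays. The Stat3 probe sets disagreed in sign, and the mean of all 4 gave −0.27 (adjusted p = 0.0337).

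Stat5a and Stat5b encode closely related proteins that act downstream of interleukins 2 and 7, and on chromosome 11 they sit next to each other and to Stat3 in the RefSeq gene table. Stat5a had 9.73 to 9.91 (median 9.84) in naive samples, 10.22, 9.80 and 10.12 in B1-8 and 10.01, 10.19 and 9.85 in V23. Stat5b had 10.56 to 10.83 (median 10.67) in naive samples, 10.86, 10.85 and 10.81 in B1-8 and 10.84, 10.89 and 10.88 in V23. The differences of GC from naive were 0.20 ± 0.11 (−0.05 to 0.45, adjusted p = 0.187) and 0.17 ± 0.07 (0.01 to 0.34, adjusted p = 0.0922). Stat5b passed with median centring (0.27, adjusted p = 0.0187) and without naive replicate 4 (0.22, adjusted p = 0.0400), and Stat5a with quantile normalization (0.30, adjusted p = 0.0468). Each gene has a second, dimmer probe set in the same direction, at 0.48 ± 0.23 for Stat5a (1450259_a_at, adjusted p = 0.138) and 0.93 ± 0.47 for Stat5b (1422102_a_at, 0.160). The 2 genes are alike in sequence, so the split of signal between them is uncertain.

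The 3 inhibitors did not move as 1 group. Socs1, which blocks the kinase site of JAKs, was at 6.38, 6.69, 5.92 and 6.30 in naive samples, 7.24, 8.15 and 8.06 in B1-8 and 7.56, 7.53 and 7.56 in V23. All GC arrays lay above all naive arrays, and B1-8 replicate 1 was the lowest GC array. Socs1 rose by 1.50 ± 0.25 in B1-8 (adjusted p = 0.00174) and by 1.23 ± 0.25 in V23 (adjusted p = 0.00427), which is 2.82-fold and 2.34-fold. It has 1 probe set, 1450446_a_at.

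Socs3, which binds the gp130 chain of the interleukin 6 receptor family and its JAK, moved the other way. Its chosen probe set, 1456212_x_at, gave 8.55, 8.97, 8.24 and 8.51 in naive samples, 6.75, 6.95 and 7.27 in B1-8 and 6.57, 6.57 and 6.71 in V23. The groups were well apart, and the lowest naive array was above the highest GC array. Socs3 changed by −1.57 ± 0.18 in B1-8 (adjusted p = 0.000287) and by −1.95 ± 0.18 in V23 (adjusted p = 7.2e-05), which is 2.98-fold and 3.86-fold lower. Probe sets ending in _x_at can pick up RNA of other genes, but both other Socs3 probe sets fell too. Probe set 1455899_x_at gave −1.80 ± 0.21 for both GC groups (adjusted p = 0.000245). The third, 1416576_at, is not of the _x_at kind and had 7.35, 7.36, 7.58 and 7.01 in naive samples, but 3.77, 3.86 and 3.54 in B1-8 and 3.86, 3.52 and 3.58 in V23. Its 6 GC arrays all lay below log2 4, where values carry little order. With values raised to log2 4 the change on this probe set was −3.32 (log2), a signal 10-fold lower in GC cells. The Socs3 probe sets thus agreed in direction but not in size.

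Genes that respond to cell handling moved in the same direction as Socs3. Of 6 such genes (Fos, Jun, Junb, Dusp1, Hspa1a and Hspa1b), 5 fell in GC cells, with log2 summed signals of 10.76 to 12.49 on naive, 10.26 to 10.46 on B1-8 and 10.08 to 10.51 on V23 arrays. Naive replicate 4 had the lowest stress signal of the naive arrays, at 10.76. Its Socs3 level lay within the range of the other naive arrays on the chosen probe set (8.51). It was the lowest of the naive arrays on 1455899_x_at (8.02) and 1416576_at (7.01). Naive replicate 2 had the highest stress signal, at 12.49. Its Socs3 level was the highest on the chosen probe set (8.97) and 1455899_x_at (9.08), but not on 1416576_at (7.36). The part of handling in the Socs3 result was not tested.

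Cish, a STAT5 target that inhibits interleukin 2 type receptors, was at 8.26, 8.16, 8.07 and 8.33 in naive samples, 7.11, 8.22 and 7.88 in B1-8 and 7.76, 7.69 and 8.25 in V23. B1-8 replicate 1 was far below the others, and the groups overlapped. The difference of GC from naive was −0.39 ± 0.21 (−0.88 to 0.10, adjusted p = 0.188), so neither a fall of that size nor no change was settled. Cish has 1 probe set, 1448724_at.

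**Figure D2:**
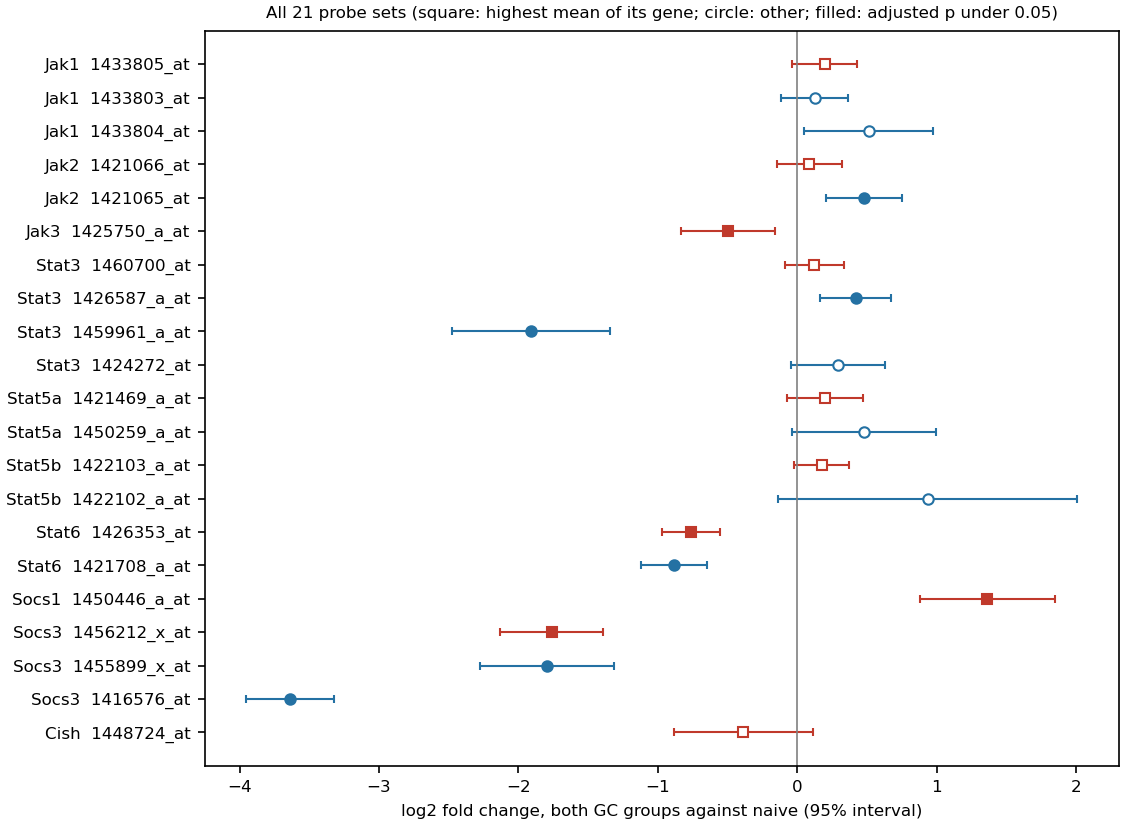
Log2 fold change of both GC groups against naive (x axis, 95% interval) for the 21 probe sets of the 10 genes (y axis), fitted over all 41235 probe sets tested; squares are the probe sets with the highest mean of their gene, circles the others, and filled symbols have an adjusted p under 0.05. Of 11 other probe sets 10 share the direction of the chosen one, and the exception is Stat3 1459961_a_at at −1.91.

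Set side by side, the comparisons of the lines with naive cells gave 1 gene higher (Socs1) and 2 lower (Stat6, Socs3) of the 10 in B1-8, where 33.7% of all genes were called (16.4% higher, 17.3% lower), and 1 higher and 3 lower (Stat6, Socs3, Jak3) in V23, where 37.9% were called (18.2% higher, 19.7% lower). Arrays did not overlap for 4 of the 10 genes in B1-8 and 5 in V23, beside 42.4% and 44.4% of all genes. Both comparisons use the same 4 naive arrays. The lines were then compared directly, which bears on GC cells whose receptors bind NP with different affinity. None of the 10 genes was called between B1-8 and V23 (0 of 10, and 0 at an unadjusted p under 0.05), where limma called 4 of 17204 genes, or 0.0233% (0.00581% higher and 0.0174% lower in B1-8). The widest log2 differences were 0.38 for Socs3 (−0.07 to 0.83, adjusted p = 0.714) and 0.27 for Socs1 (−0.33 to 0.87, adjusted p = 0.854), both higher in B1-8. Intervals of this width do not show that the lines are alike. The arrays of the 2 lines did not overlap for Stat3 and Socs3, 2 of 10 genes, beside 13.7% of all genes. For Stat6 the difference was 0.17 (−0.06 to 0.40), for Jak3 0.07 (−0.33 to 0.48) and for Cish −0.16 (−0.78 to 0.46).

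**Figure D3:**
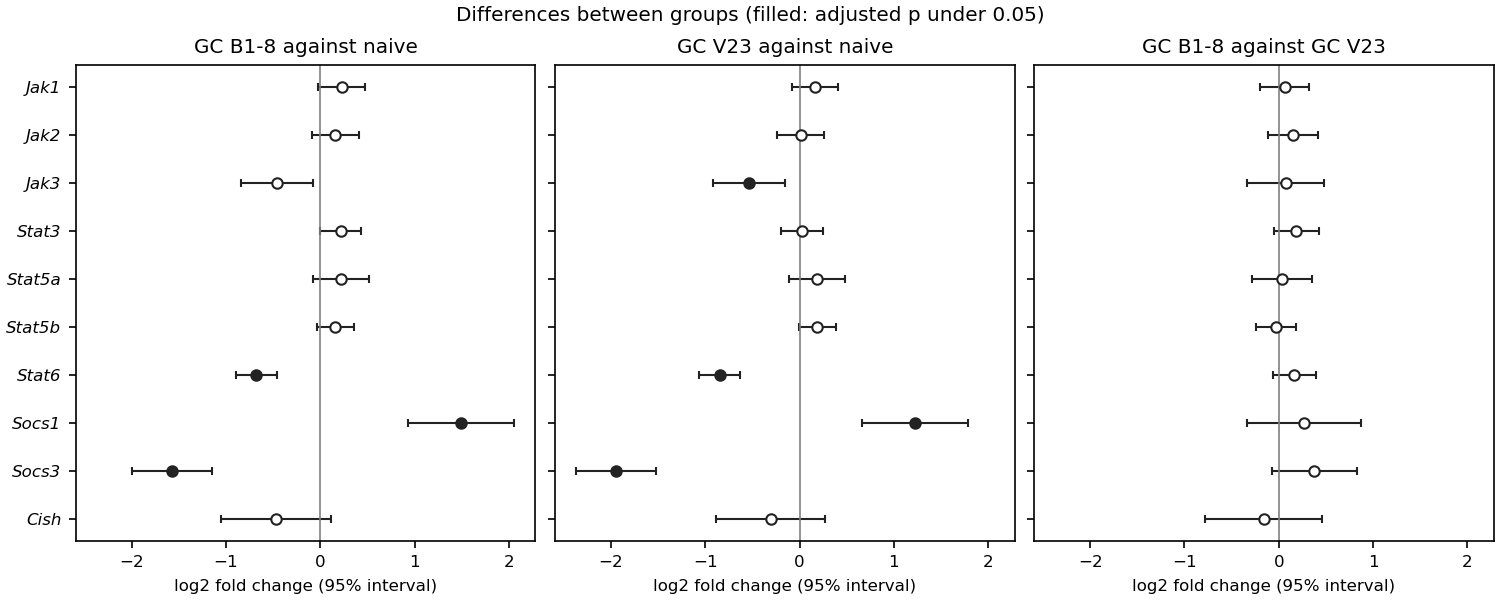
Log2 fold change (x axis, 95% interval from limma) of the 10 genes (y axis) for each GC line against naive and for the lines against each other (B1-8 minus V23); filled points have an adjusted p under 0.05. Stat6, Socs1 and Socs3 are filled against naive in both lines, Jak3 is filled for V23, and no point is filled between the lines, which for Jak3 differ by 0.07.

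The rest of the pathway was read from 7 lists of 69 genes, of which 67 were tested; the others were not analysed here. Of 3 other JAK and STAT genes 1 fell over both GC groups, 1 in B1-8 and 2 in V23, beside 21%, 17.3% and 19.7% of all genes. Tyk2, the kinase of the interferon and interleukin 12 receptors, went from 10.55 ± 0.13 in naive to 10.14 ± 0.05 in B1-8 and 9.84 ± 0.16 in V23 (−0.56 ± 0.09, adjusted p = 0.00117), although its second, dimmer probe set gave 0.17 ± 0.59. Of 5 other SOCS genes 4 fell and 0 rose, beside 21% of all genes lower and 20.5% higher. Socs5, which inhibits interleukin 4 receptor signalling, fell most: 11.21, 11.12, 11.42 and 11.12 in naive samples, 7.50, 8.52 and 8.42 in B1-8 and 7.63, 7.83 and 7.95 in V23, a change of −3.24 ± 0.20 (adjusted p = 6.36e-06). Its second probe set fell by 1.28 ± 0.12. Socs7, Socs4 and Socs6 changed by −0.52 ± 0.11, −0.32 ± 0.08 and −0.47 ± 0.14. With each array centred on its median, or without naive replicates 2 and 4, 2 genes were called lower. Averaging all probe sets of a gene, the list had 1 higher and 1 lower. Socs7 was then at 0.10 (adjusted p = 0.774). Its probe set 1434834_at changed by −0.60 ± 0.14, as the chosen one did, but 1420766_at rose by 0.78 ± 0.11 and 1438492_at was at 0.72 ± 0.82. The other Socs4 probe sets were at 0.06, 0.10 and 0.10, and those of Socs6 at −0.05 and −0.06. The Socs6 call also ended with quantile normalization (−0.19, adjusted p = 0.327) and without naive replicate 1 (0.0729), 3 (0.0613) or 4 (0.0577).

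Of 4 genes whose proteins join the SOCS box to ubiquitin transfer, 3 rose in RNA: Rnf7 by 0.63 ± 0.11, Elob by 0.41 ± 0.08 and Eloc by 0.39 ± 0.11. Of all genes 20.5% were called higher. The call for Eloc ended without naive replicates 2 and 4 (adjusted p = 0.0801) and with quantile normalization (0.0603), which left 2 of 4. Cul5 was at −0.27 ± 0.12 (adjusted p = 0.109). Of 10 other inhibitors 4 rose and 3 fell (20.5% and 21% of all genes), but 1 and 1 without naive replicates 2 and 4, and 2 and 5 with probe set means. Pias3, which binds STAT3, changed by −1.16 ± 0.12 and Pias1 by −0.29 ± 0.07, and Pias2 rose by 0.88 ± 0.12; the mean of all Pias2 probe sets gave 0.01. Sh2b3, which encodes the adaptor Lnk, changed by −0.42 ± 0.12.

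Of 24 cytokine receptor chains 10 fell and 3 rose, with a median of −0.19 beside 0.06 for all genes, of which 21% were called lower and 20.5% higher. With probe set means 14 fell and 2 rose, with a median of −0.75, and without naive replicates 2 and 4 the counts were 9 and 2. Il10rb, a chain of the interleukin 10 receptor, went from 11.79 ± 0.21 in naive to 8.39 ± 0.20 in B1-8 and 8.55 ± 0.02 in V23 (−3.32 ± 0.12), and Il10ra, its partner, changed by −2.11 ± 0.11. Ifnar2, of the type I interferon receptor, changed by −3.43 ± 0.14 on an _x_at probe set, and its 2 other probe sets fell by 2.27 and 1.64. Csf2rb, the common beta chain for interleukins 3 and 5, changed by −2.60 ± 0.16, where RNA of its near-identical mouse copy cannot be told apart. The 3 that rose, named after their values were seen, were Il4ra (0.86 ± 0.10), Il21r (0.94 ± 0.13) and Lifr (0.98 ± 0.28). Il4ra had 10.10, 9.97, 9.87 and 10.23 in naive samples and 10.66 to 11.06 on the 6 GC arrays, which did not overlap. Of its other probe sets, 1423996_a_at rose by 1.08 ± 0.24 (adjusted p = 0.00828) and 1447858_x_at was at −0.56 ± 0.39 (0.313). The mean of the Il4ra probe sets did not pass (0.46, adjusted p = 0.126). The call for Lifr ended without naive replicate 3 (adjusted p = 0.0614), naive replicate 4 (0.0506) or naive replicates 2 and 4 (0.0673).

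**Figure D4:**
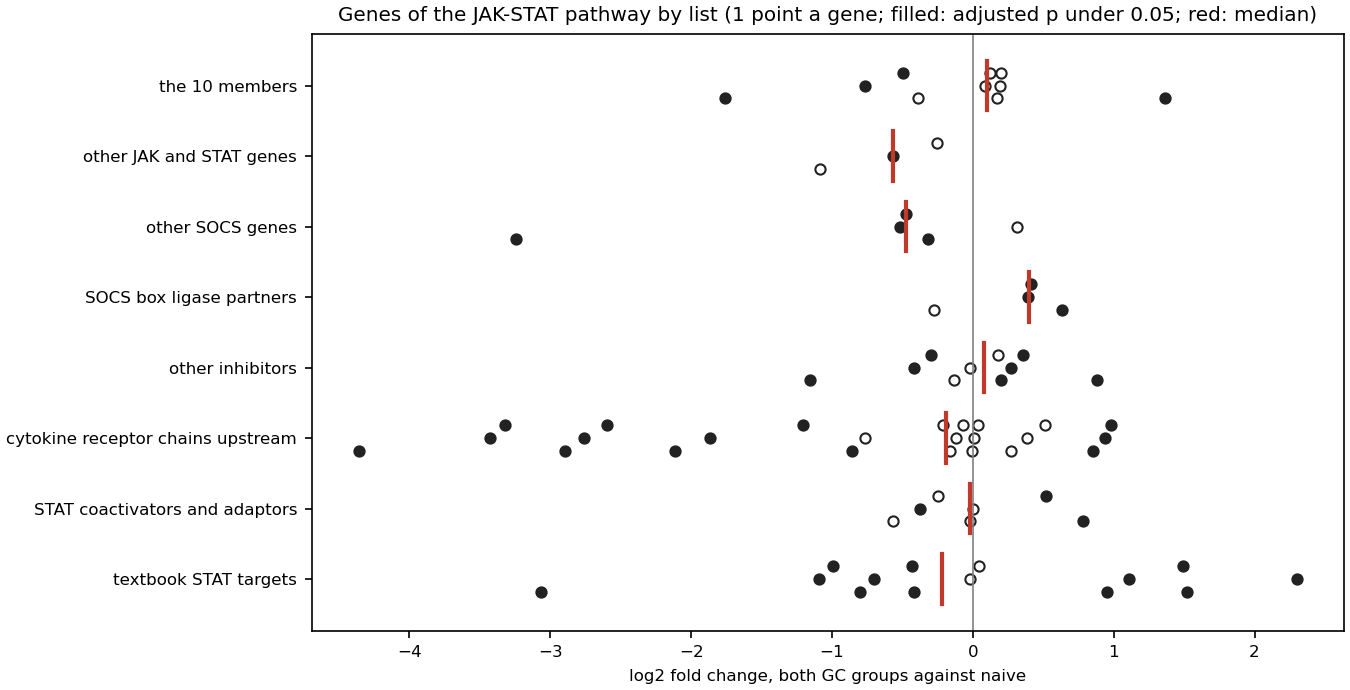
Log2 fold change of both GC groups against naive (x axis) for the 10 genes and for the 67 tested genes of 7 pathway lists (y axis); each point is a gene, filled points have an adjusted p under 0.05 and red bars are list medians. Receptor chains reach from −4.36 to 0.98, and the 10 genes from −1.76 to 1.36. The lowest point, Il9r, rests partly on GC values below log2 4 (3.56 in B1-8, 3.38 and 3.60 in V23).

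Genes known as STAT targets in lymphocytes went both ways, 5 higher and 7 lower of 14, with a median of −0.22, beside 20.5% and 21% of all genes. With probe set means 4 were higher and 6 lower, with a median of −0.41, and without naive replicates 2 and 4 the counts were 5 and 6. Ccnd2, a cyclin that STAT5 induces, changed by −3.06 ± 0.07, and the interferon target Irf1 by −0.99 ± 0.09. Pim1, a survival kinase, rose by 1.52 ± 0.10 and its second probe set by 1.48 ± 0.13. The cyclin Ccnd3 rose by 1.49 ± 0.11 on its brightest probe set, but its probe sets disagreed: 1438805_at fell by 2.55 ± 0.35 (adjusted p = 0.000556), 1444323_at was at −0.01 ± 0.22, and the mean of all 3 was at −0.35 (adjusted p = 0.141). No gene of the 7 lists was called between the lines. Stat4, which interleukin 12 activates, had the widest difference of the other JAK and STAT genes there, with 7.29 to 7.43 on B1-8 and 4.29 to 6.35 on V23 arrays (2.28 ± 0.54, adjusted p = 0.388). Its V23 replicates 1 and 3, at 4.29 and 4.55, lay close to the log2 4 filter. Against naive, Stat4 was called lower in V23 (−2.22 ± 0.51, adjusted p = 0.00834) but not in B1-8 (0.05 ± 0.51, 0.951) or over both groups (−1.08 ± 0.43, 0.0754).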

How the data were processed

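Per the labels' protocols, RNA of FACS-sorted splenic B cells was made into biotinylated cRNA and hybridized to 10 arrays. The authors deposited 1 table of log2 signals for 45101 probe sets. The submitters' processing notes name GCRMA without a version, but the values have no floor or shared quantiles, and the 2% trimmed mean of the unlogged signals was 500 on every array, the form of MAS5 signals. They were used as deposited. In the platform annotation 34958 probe sets have 1 gene symbol, 932 several and 9211 none here. Each gene was represented by its brightest probe set (by mean log2 signal) among those with 1 symbol, and genes above log2 4 on at least 3 arrays were tested (17204). Fold changes come from limma 3.58.1 in R 4.3.3: 1 model of 3 group means over 10 arrays, two-sided, with Benjamini-Hochberg adjustment over all genes and a threshold of 0.05 (7 residual and 1.46 prior degrees of freedom). Other probe sets were tested in a fit over 41235 probe sets. Arrays give no counts, so their number limits the precision. The script was tested on simulated data. Genes and lists were chosen with earlier results of these data known. All 10 genes are named; of each pathway list up to 4 called genes with the smallest p are named, with exceptions stated. Alternatives covered filters, probe sets, normalization, a floor, moderation, array weights, the groups fitted, the replicate number as a block and arrays left out. Figures were drawn with matplotlib 3.10.9.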

Additional observations from a re-analysis of the deposited data

Results flagged for a closer look

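One naive array stood apart from the others of its group. Stat6 in naive replicate 4 was at 12.2, while the other 3 naive arrays lay between 12.38 and 12.40, and its gap to them was large for a group of 4 arrays; chance alone marks about 1 in 20 such groups, and 10 genes were looked at. This array was still above all GC arrays (11.42 to 11.77). Without naive replicates 2 and 4, Stat6 stayed past the threshold.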

How the results depend on the processing

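Stat6, Socs1 and Socs3 kept their direction and stayed past the threshold against naive in both lines under all 21 alternatives (20 over both GC groups) of filter, probe set average, normalization, floor, moderation, weights, groups fitted, replicate block and arrays left out; over both GC groups the log2 fold changes ranged from −0.90 to −0.66, 1.23 to 1.53 and −2.40 to −1.55. None of the 10 genes passed between the lines under any of these. The number of the 10 genes called higher in GC cells, 1, became 3 with median centring, 2 with quantile normalization, 2 with intensity-trended robust moderation and 1 to 2 with single arrays left out. In V23 the number called higher became 2 with median centring. The number called lower over both GC groups, 3, became 2 with median centring, 4 with probe set means and 2 to 3 with single arrays left out. The 1 higher and 3 lower genes called over all genes between the lines became 0 and 0 with probe set means, median centring, the compared groups alone, and without naive replicates 2 and 4; 12 and 5 with trended robust moderation; 2 higher with the floor at log2 4; and 0 to 9 higher and 0 to 2 lower with single arrays left out.

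The replicate block gave 0 and 0 there, and Jak2 in V23 at −0.053. It changed no other count of calls by over 1.5 times, and Jak3 in B1-8 passed with it (adjusted p = 0.0281). Only the naive group had a replicate 4, so the block also took that array out of the fold changes. Jak2 in V23 was at the same −0.053 without naive replicate 4. Same-numbered arrays deviated from their group means with correlations of −0.02 to 0.07, so no strong shared deviation was seen. Arrays with different numbers were not compared, so this does not settle whether the numbers pair the samples.

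Among the 10 genes, signs turned only for differences that were not called in the main analysis; in the pathway lists, averaging probe sets turned 4 called genes, Ccnd3 (−0.35), Crebbp (0.26), Socs7 (0.10) and Pias4 (−1.08, adjusted p = 0.00226). The cause was not tested. With probe set means, Stat3 was at −0.13 in B1-8, −0.41 in V23 (adjusted p = 0.0131) and −0.27 in both (0.0337), and Stat5b between the lines at 0.27. With quantile normalization, V23 against naive gave −0.0036 for Jak1, −0.064 for Jak2, −0.043 for Stat3 and 0.031 for Cish. Jak2 was at −0.0077 with array weights and −0.085 without naive replicates 2 and 4 in V23, and at −0.011 in both groups without those arrays. Between the lines, median centring gave −0.00034 for Jak1 and −0.030 for Stat5a, and array weights −0.017 for Stat5a. Single arrays left out gave −0.053 to 0.077 for Jak2 and −0.025 to 0.089 for Stat3 in V23, and between the lines −0.058 to 0.18 for Jak3, −0.056 to 0.15 for Stat5a and −0.40 to 0.15 for Cish. Other probe sets gave −1.51, −2.31 and −1.91 for Stat3 (1459961_a_at; B1-8, V23, both), −0.076 for Jak1 in V23 (1433803_at) and 0.58 for Stat5b between the lines (1422102_a_at). Low signals limit what dim probe sets show.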

Other observations

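STAT coactivators and adaptors were also read. Of 7 genes 2 rose and 1 fell: Grb2, an adaptor that links receptors to Ras, rose by 0.78 ± 0.08, Ncoa1, a coactivator, rose by 0.52 ± 0.14, and the acetyltransferase Crebbp changed by −0.37 ± 0.09, beside 20.5% of all genes higher and 21% lower. The Crebbp call ended with median centring (adjusted p = 0.0838), its probe set 1436983_at was at 0.07 ± 0.11, and the mean of its probe sets was at 0.26 (adjusted p = 0.340), so that with probe set means the list had 3 higher and 0 lower. Ep300, its relative, was at −0.25 ± 0.09 (adjusted p = 0.0647).

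The genes whose level over the 10 arrays was most like that of Stat6, after each was centred on its own mean, were Tmem170b, Sec62 and Ly86, with root mean square differences of 0.04, 0.05 and 0.06 log2 units. For Socs3 they were P2rx4, Irak2 and Ssh1, with 0.19, 0.19 and 0.20, and for Jak3 Pomt1, Ccdc61 and Mocs3, with 0.12 each. These are descriptions over the same 10 arrays, among 16529 candidate genes for Jak3 and Stat6 and 16530 for Socs3, and such a match includes the difference between GC and naive groups.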
